A study of Mus musculus with 9 samples.

Results

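The D-type cyclins (Ccnd1, Ccnd2, Ccnd3), their partner kinases (Cdk4, Cdk6) and the inhibitors of those kinases (Cdkn1a, Cdkn1b, Cdkn2a, Cdkn2c, Cdkn2d) were read from RNA sequencing of mouse CD8 T cells. These 10 genes were chosen by symbol, for their place in the cell cycle, from a table of 23946 genes, and all 10 were found. They and the lists of related genes below were chosen with earlier results of these data known. Of them, 8 had at least 1 FPKM (read fragments scaled to transcript length and to the size of the library) in at least 3 of the 9 libraries and were tested, as were 10172 genes in all. Ccnd1 and Cdkn2a stayed below this level and were not tested.

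There were 3 groups of 3 libraries. The group labelled CTCF KO carried Ctcf-floxed alleles (genotype CTCF-/-), the group labelled DKO carried floxed alleles of Tcf1, encoded by Tcf7, and of Lef1 (genotype Tcf1-/-Lef1-/-), and the third group was wild type (WT). Donors of all 3 groups carried hCD2-Cre, a Cre recombinase driven by human CD2 control elements that act in lymphocytes, and Rosa26-lsl-GFP, which marks cells in which Cre has acted. Splenocytes were depleted of other lineages, of CD4+ cells and of cells high in CD44, so that naive CD8 T cells remained, were stained with the division dye CTV and were given to Rag1 KO mice, which have no T or B cells of their own. After 72 h of homeostatic proliferation, cells positive for CTV, TCRbeta, GFP and CD8 were sorted from the recipients' spleens, and their RNA was sequenced on an Illumina Hiseq-2000. The source labels also call these cells "stim CD8", and no other stimulus is described. The ages of the mice are not stated in the labels, and neither is the number of donor or recipient animals behind a group. A p-value here therefore reflects the scatter among the libraries at hand, part of which may be technical.

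D-type cyclins are made when growth signals reach a cell in G1. They bind Cdk4 or Cdk6, and the complex phosphorylates the retinoblastoma protein Rb and its relatives, which frees E2F transcription factors to switch on genes of DNA replication. Proteins of the INK4 family (Cdkn2a, Cdkn2c, Cdkn2d) bind Cdk4 and Cdk6 alone and keep D-type cyclins off, while those of the Cip/Kip family (Cdkn1a, Cdkn1b) inhibit Cdk2 complexes and also help D-type cyclins to assemble with Cdk4. In resting T cells Cdkn1b protein restrains division, and antigen or cytokine signals raise Ccnd2, Ccnd3, Cdk4 and Cdk6.

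Promoter sequences are shown for 4 members whose RNA differed between groups, because the targeted proteins and several cell cycle factors bind DNA. They come from RefSeq on build GRCm38.p6, which held 12 promoters for 8 of the 10 members, with none for Ccnd1 or Ccnd2. Each run below goes 5′ to 3′ on the gene's strand, from 250 bases before the annotated start to 30 after it. Capitals mark matches, on either strand, to TTTCGCGC, TTTGGCGC or TTTCCCGC (E2F), TTTGAA (CHR, the cell cycle homology element), TGTTTAC (forkhead), CTTTGAT (TCF/LEF), AGGNGGC (a core of the CTCF motif) and CACGTG (E-box, bound by Myc among others). The 280 bases are Cdk4 at chr10:127063285-127063564 on the plus strand and Cdkn1a at chr17:29093519-29093798 on the plus strand (the downstream of its 2 listed starts). The others are Cdkn2c at chr4:109666727-109667006 on the minus strand (the upstream of its 2 listed starts) and Ccnd3 at chr17:47504801-47505080 on the plus strand (the upstream of its 2 listed starts).
Cdk4: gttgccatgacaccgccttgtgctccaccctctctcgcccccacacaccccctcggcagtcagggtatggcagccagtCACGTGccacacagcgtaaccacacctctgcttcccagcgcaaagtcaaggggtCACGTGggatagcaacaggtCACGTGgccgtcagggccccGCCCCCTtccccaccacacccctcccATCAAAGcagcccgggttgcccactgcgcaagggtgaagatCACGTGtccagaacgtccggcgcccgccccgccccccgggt
Cdkn1a: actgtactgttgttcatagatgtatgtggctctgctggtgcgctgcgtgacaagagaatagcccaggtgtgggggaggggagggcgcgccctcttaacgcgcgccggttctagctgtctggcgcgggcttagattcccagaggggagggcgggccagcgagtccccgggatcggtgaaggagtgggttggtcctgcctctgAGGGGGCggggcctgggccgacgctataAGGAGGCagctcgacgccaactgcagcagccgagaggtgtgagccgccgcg
Cdkn2c: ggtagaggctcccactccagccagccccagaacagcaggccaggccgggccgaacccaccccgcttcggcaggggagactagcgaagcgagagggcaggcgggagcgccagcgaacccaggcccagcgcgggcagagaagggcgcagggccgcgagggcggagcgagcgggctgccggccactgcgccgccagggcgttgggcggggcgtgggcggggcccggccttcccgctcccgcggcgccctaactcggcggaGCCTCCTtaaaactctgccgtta
Ccnd3: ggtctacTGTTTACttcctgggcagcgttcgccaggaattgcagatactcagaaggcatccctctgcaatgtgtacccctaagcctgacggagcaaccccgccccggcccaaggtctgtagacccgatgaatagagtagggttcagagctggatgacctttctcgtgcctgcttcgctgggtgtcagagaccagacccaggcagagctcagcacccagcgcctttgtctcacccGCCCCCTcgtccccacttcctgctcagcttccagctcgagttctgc

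The Cdk4 promoter held 4 E-boxes, at -172, -118, -98 and -11 from the start, where 7.15% of all 32851 promoters of the same length held at least 1. Of the 12 member promoters, 3 held an E-box: that of Cdk4, that of Cdk6 at -220 and that of the downstream Cdkn2c start, not shown, at 35. Promoters with 4 or more E-boxes numbered 8 (0.0244%), a count made after the Cdk4 sequence had been seen. Cdk4 also held the TCF/LEF letters on the reverse strand at -52 (3.73% of promoters) and the CTCF core at -78. The CTCF core was common: 29.4% of all promoters held it, and 7 of the 12 member promoters did, among them Cdkn1b with 3 matches, Cdkn1a with 2 and Cdkn2c with 1 at position 8. The forkhead letters were found in 3.65% of promoters and, among the members, at -243 of the upstream Ccnd3 start. Of the other motifs, 1 of the 3 E2F spellings was in a Cdkn2a promoter (1.07% of all promoters), and CHR, which 17.9% of promoters held, was in none of the 12. Each match is a run of letters, and binding was not measured.

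Libraries of the 3 groups were alike in the number of genes at 1 FPKM or more (9613 to 9832), and the depth of each is unknown, since the table gives FPKM and no counts. The targeted genes were read first. Lef1 fell to 90.7 ± 4.41 FPKM in libraries labelled DKO, against 346 ± 12.4 in WT (SD, n = 3 each, limma adjusted p = 1.4e-08), while Tcf7 was higher at 342 ± 11.3 in DKO, against 257 ± 6.43 in WT (limma adjusted p = 0.000223). Ctcf had 18.3 ± 1.64 FPKM in libraries labelled CTCF KO and 23.9 ± 7.70 in WT, a log2 fold change of -0.33 that did not pass the test (limma adjusted p = 0.319). Every direction below is therefore that of the libraries as labelled. All 10 CD8 T cell markers passed the expression filter, with summed levels of 8417 to 9111 FPKM in CTCF KO, 8385 to 9056 in DKO and 7528 to 8194 in WT. Summed neutrophil markers were 15.1 to 18.8 FPKM in CTCF KO, 0.841 to 1.56 in DKO and 43.5 to 56.7 in WT, with 6 of 6 tested markers called lower in both labelled knockouts and Elane listed at 0 throughout. Summed NK cell markers were 55.2 to 59.4 FPKM in CTCF KO, 59.9 to 73.5 in DKO and 76.8 to 92.4 in WT. Summed B cell markers were 34.1 to 37.9, 99.5 to 118 and 58.5 to 62.2 FPKM in the same order. Of the 8 B cell markers, 6 were below 1 FPKM in every library, Pax5 at 0 among them, and 2 were tested. Of these 2, Cd79b was called higher and Cd22 lower in DKO against WT, and both were called lower in CTCF KO against WT. Y-linked transcripts summed to 90.02 to 101 FPKM in CTCF KO, 0.246 to 0.742 in DKO and 0.595 to 2.03 in WT, so sex and genotype cannot be told apart in comparisons with CTCF KO. The part of these markers in the results was not tested.

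The members moved in both directions. Against WT, libraries labelled CTCF KO had higher Ccnd2, Ccnd3 and Cdkn1a, and no member was called lower. DKO libraries also had higher Ccnd2, Ccnd3 and Cdkn1a than WT, and they had lower Cdk4 and Cdkn2c. Against DKO, CTCF KO libraries had more Cdk4 and less Cdkn1b. In bulk RNA, fewer cells of a type and less RNA per cell cannot be told apart, and this holds for every value here.

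**Figure D1:**
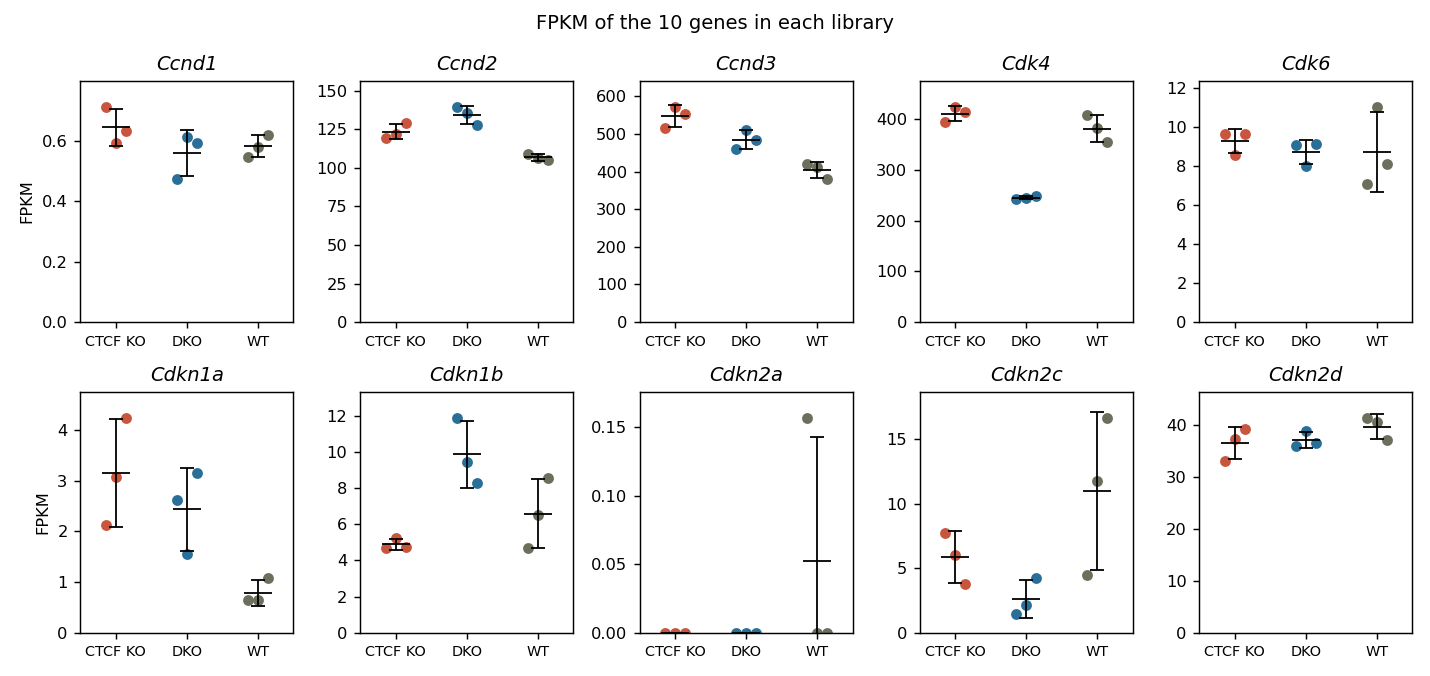
FPKM of the 10 genes in each of the 9 libraries, 1 panel per gene, each with its own vertical axis from 0 and with groups CTCF KO, DKO and WT from left to right. Points are libraries and black bars are the mean ± SD of 3; the 3 DKO points of Cdk4 lie between 243 and 249.1 FPKM, below all 6 other libraries, and the 3 WT points of Cdkn1a lie below all 6 knockout libraries.

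These calls are by limma on log2(FPKM + 1), with Benjamini-Hochberg adjustment across every gene tested and a threshold of 0.05. When CTCF KO was set against WT, 3 of 8 tested members were called higher, where 5.78% of all tested genes were, and 0 of 8 were called lower, where 6.37% were (12.2% in either direction). At an unadjusted p under 0.05 the lower count was also 0, and by the q-values in the authors' deposited table it was 1 (Cdkn2c). For DKO against WT, 3 of 8 members were called higher and 2 lower, where 18.5% and 21.9% of all tested genes were (40.4% in either direction). For CTCF KO against DKO, 1 of 8 was called higher and 1 lower, where 21.8% and 16.2% were (38% in either direction). The members' median log2 fold change was 0.10, 0.14 and 0.13 in the 3 comparisons in this order, and that of all tested genes 0.01, 0.01 and 0.02. Libraries of the groups did not overlap for 3 of 8 members in CTCF KO against WT (30.4% of all tested genes), 5 of 8 in DKO against WT (54.1%) and 3 of 8 in CTCF KO against DKO (52.4%). Both knockouts were set against the same WT libraries. The members were chosen with earlier results of these data known, and Cdkn1a passed the filter through the knockout libraries. These counts are therefore a description and no test of the members as a set.

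**Figure D2:**
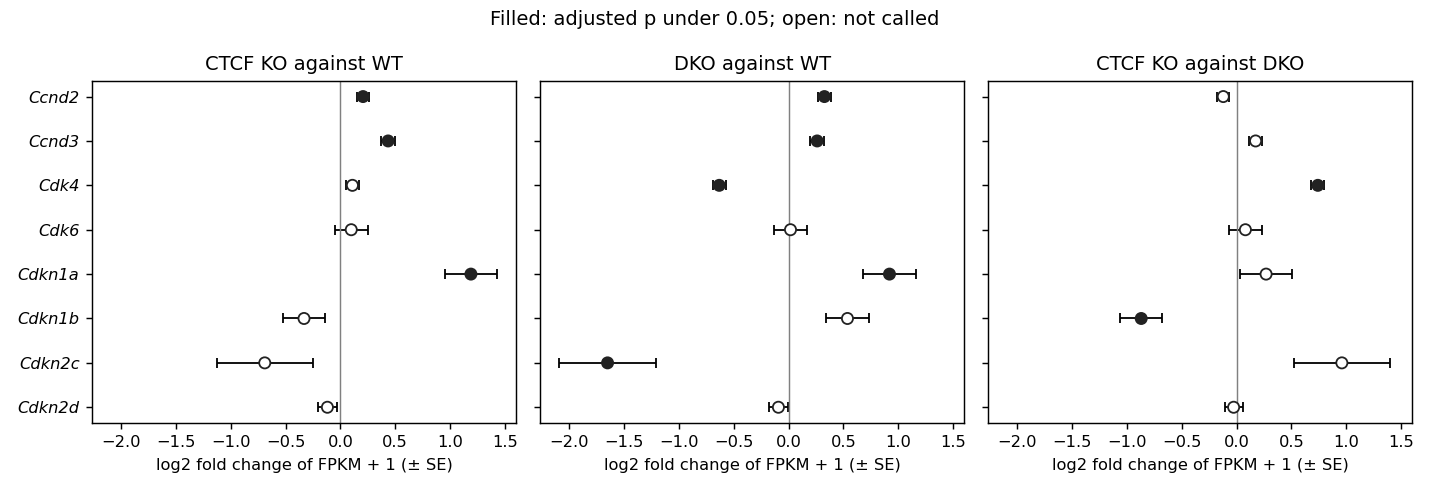
Log2 fold change of FPKM + 1 (horizontal axis, bars are ± SE) of the 8 tested members in CTCF KO against WT, DKO against WT and CTCF KO against DKO; filled points have a limma adjusted p under 0.05. Cdkn1a stands at 1.19 and 0.92 against WT, and Cdkn2c has the widest error bars.

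Among the D-type cyclins, Ccnd3 RNA was the most abundant. Ccnd3 encodes cyclin D3, which thymocytes need to expand. It had 516, 572 and 554 FPKM in CTCF KO, 460.3, 511 and 485 FPKM in DKO and 420.3, 413 and 381 FPKM in WT. Every CTCF KO library lay above every DKO library, and every DKO library above every WT library. Ccnd3 rose 1.352-fold in CTCF KO against WT in mean FPKM (log2 fold change 0.43, SE 0.06, limma adjusted p = 0.00212). In DKO against WT it rose 1.199-fold (log2 fold change 0.26, limma adjusted p = 0.00896), a call that was lost when libraries were scaled to 1 median (adjusted p = 0.102) and by the authors' q-value (0.0757). Between CTCF KO and DKO the difference was 0.17 on the log2 scale and was not called (limma adjusted p = 0.0532). It passed in 6 of 21 alternatives, among them without CTCF KO library 1 (adjusted p = 0.0332), without DKO library 2 (0.0441) and without WT library 3 (0.0396). With the GC index described further on as a covariate, the difference was 0.034 (limma adjusted p = 0.893). The authors' q-value for it was 0.275.

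Ccnd2 encodes cyclin D2, which cytokine and antigen receptor signals raise in lymphocytes. It had 119, 122 and 129 FPKM in CTCF KO, 139.6, 136 and 128 FPKM in DKO and 109, 106 and 105 FPKM in WT. All 6 knockout libraries lay above all 3 WT libraries, and the CTCF KO and DKO libraries overlapped. Ccnd2 rose 1.26-fold in DKO against WT (log2 fold change 0.33, SE 0.06, limma adjusted p = 0.00161). For CTCF KO the rise over WT was 1.16-fold (log2 fold change 0.21, limma adjusted p = 0.0437), close to the threshold. That call held in 1 of 9 fits that left out a library, the one without DKO library 3 (adjusted p = 0.0494), and in 6 of 13 other alternatives. In the other 8 such fits its adjusted p lay between 0.0542 and 0.1502, while its log2 fold change stayed between 0.17 and 0.23.

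Ccnd1 encodes cyclin D1, the main D-type cyclin of many tissues outside blood. It had 0.711, 0.591 and 0.630 FPKM in CTCF KO, 0.473, 0.613 and 0.591 FPKM in DKO and 0.546, 0.579 and 0.619 FPKM in WT. The 3 groups overlapped, and all 9 libraries were below 1 FPKM. FPKM is per transcript length, so the 3 cyclins can be summed: the sum was 671 ± 31.4 FPKM in CTCF KO libraries, 620.1 ± 24.1 in DKO and 512 ± 22.5 in WT (SD, n = 3 each). Ccnd3 made up 81.5% of it in CTCF KO libraries, 78.2% in DKO libraries and 79.0% in WT libraries, and Ccnd1 0.0964%, 0.0900% and 0.114% in the same groups.

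Of the 2 kinases, Cdk4 carried nearly all of the RNA, and it had the lowest adjusted p among the members. It had 394, 424 and 414 FPKM in CTCF KO, 243, 244 and 249.1 FPKM in DKO and 407, 381 and 355 FPKM in WT. The DKO libraries were the lowest 3 of the 9 and lay close together, while CTCF KO and WT overlapped. Cdk4 fell in DKO to 0.644 of its WT mean (log2 fold change -0.63, SE 0.06, limma adjusted p = 3.3e-05). Its CTCF KO mean was 1.67-fold higher than in DKO (log2 fold change 0.74, SE 0.06, limma adjusted p = 1.4e-05), and against WT its log2 fold change was 0.11 (limma adjusted p = 0.282), which passed under quantile normalization (adjusted p = 0.0364). Both Cdk4 calls held in all 9 fits that left out a library and in all 12 other alternatives, with adjusted p up to 0.00951 against WT and up to 0.00526 between the knockouts. Its promoter is the one above with the 4 E-boxes and the TCF/LEF letters.

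Cdk6, the kinase that shares these cyclins, had 9.64, 8.55 and 9.64 FPKM in CTCF KO, 9.05, 8.005 and 9.11 FPKM in DKO and 7.06, 11.03 and 8.08 FPKM in WT. The WT libraries spanned those of both knockouts. No difference passed the test: the log2 fold change was 0.10 (SE 0.15, limma adjusted p = 0.764) in CTCF KO against WT, 0.02 (adjusted p = 0.935) in DKO against WT and 0.08 (adjusted p = 0.707) in CTCF KO against DKO. The first turned negative under array weights and the second also under quantile and median scaling, so no direction is given. Cdk4 was 97.8% of the summed Cdk4 and Cdk6 FPKM in CTCF KO libraries, 96.6% in DKO libraries and 97.8% in WT libraries.

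The DKO libraries, whose Cdk4 was lowest, had the highest ratio of summed D-type cyclin FPKM to summed Cdk4 and Cdk6 FPKM. The ratio was 1.57, 1.61 and 1.61 in CTCF KO libraries, 2.38, 2.57 and 2.37 in DKO libraries and 1.28, 1.32 and 1.34 in WT libraries. The 3 groups did not overlap. The summed kinases themselves were 419.9 ± 14.7 FPKM in CTCF KO libraries, 254 ± 3.66 in DKO and 389.8 ± 25.8 in WT (SD, n = 3 each).

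**Figure D3:**
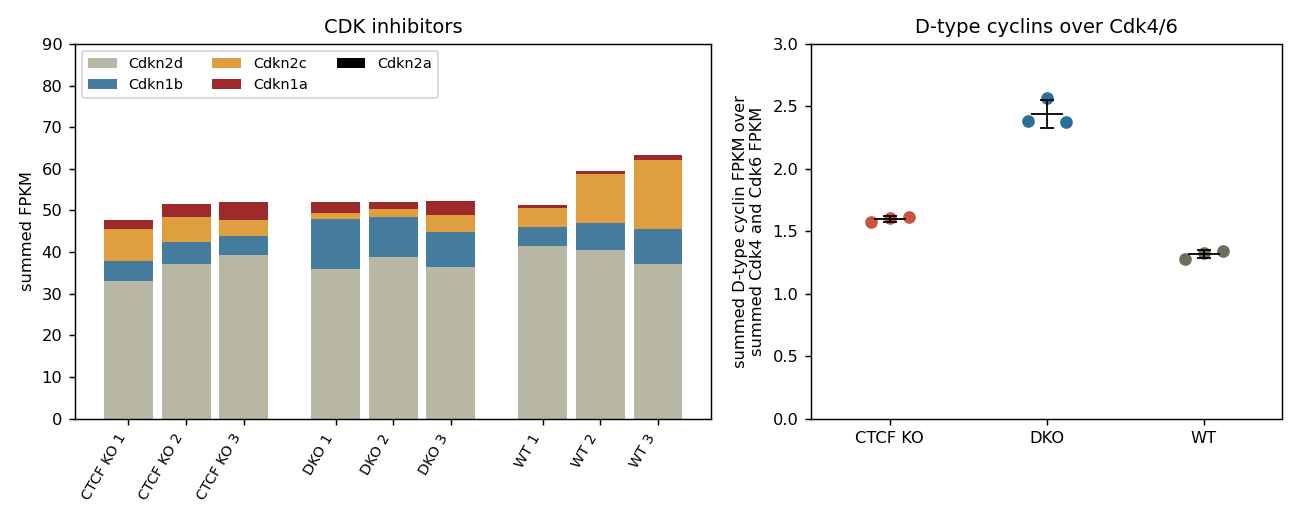
Left, FPKM of the 5 CDK inhibitors stacked for each library, with CTCF KO, DKO and WT from left to right; right, summed D-type cyclin FPKM over summed Cdk4 and Cdk6 FPKM, with points for libraries and bars for the mean ± SD of 3. Cdkn2d fills most of each bar, the orange Cdkn2c layer is deepest in WT libraries 2 and 3, and the DKO ratios of 2.37 to 2.57 lie above the rest.

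Of the Cip/Kip inhibitors, Cdkn1a rose in both knockouts. Cdkn1a encodes p21, the CDK inhibitor that p53 switches on after DNA damage. It had 2.13, 3.08 and 4.25 FPKM in CTCF KO, 2.62, 1.55 and 3.15 FPKM in DKO and 0.650, 0.638 and 1.09 FPKM in WT. All 6 knockout libraries lay above the highest WT library, and the knockouts overlapped. In WT only library 3 reached 1 FPKM, so Cdkn1a passed the expression filter through the knockout libraries, where it is high. By mean FPKM it was 3.98-fold higher in CTCF KO than in WT and 3.08-fold higher in DKO than in WT. On the log2(FPKM + 1) scale, which understates the change of such low genes, it rose by 1.19 (SE 0.24, limma adjusted p = 0.0114) and by 0.92 (SE 0.24, limma adjusted p = 0.0134).

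The call of Cdkn1a in CTCF KO against WT held in all 9 fits that left out a library, with adjusted p up to 0.0481, and in all 12 other alternatives that could test it. For DKO against WT the call was lost without DKO library 3 (adjusted p = 0.0511) and with the GC index described further on as a covariate. With that covariate its log2 fold change was 1.22 and its SE 0.44 (adjusted p = 0.0985). The direct difference between the knockouts was 0.27 (SE 0.24, limma adjusted p = 0.405), and under the same covariate it was -0.045.

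Cdkn1b encodes p27, the inhibitor that holds T cells out of cycle. It had 4.71, 5.25 and 4.73 FPKM in CTCF KO, 11.9, 9.44 and 8.27 FPKM in DKO and 4.71, 6.50 and 8.53 FPKM in WT. The CTCF KO libraries lay below all DKO libraries, and the spread of WT reached into both. Cdkn1b was lower in CTCF KO than in DKO, at 0.497 of the DKO mean (log2 fold change -0.87, SE 0.19, limma adjusted p = 0.00699). Against WT neither knockout passed the test: the log2 fold change was -0.33 (limma adjusted p = 0.332) in CTCF KO and 0.54 (limma adjusted p = 0.0514) in DKO. The DKO value passed in 5 alternatives, among them without WT library 3 (adjusted p = 0.0132) and without DKO library 3 (0.04998). With the GC covariate it was 0.067 (adjusted p = 0.918), and the difference between CTCF KO and DKO was -0.38 and no longer called (adjusted p = 0.537).

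Of the INK4 inhibitors, Cdkn2c fell in DKO. Cdkn2c encodes p18, which limits the division of lymphocytes. It had 7.76, 6.04 and 3.79 FPKM in CTCF KO, 1.45, 2.13 and 4.24 FPKM in DKO and 4.49, 11.7 and 16.7 FPKM in WT. Replicates differed more for Cdkn2c than for any other tested member: the highest WT library had over 3 times the lowest, and the DKO range ended just below the WT range. In DKO it fell to 0.238 of the WT mean (log2 fold change -1.65, SE 0.44, limma adjusted p = 0.0151). That call was lost without DKO library 1 (adjusted p = 0.0563) and without WT library 2 (adjusted p = 0.0533). In CTCF KO the log2 fold change against WT was -0.69 (limma adjusted p = 0.378), where the q-value in the authors' deposited table was 0.0373. Between CTCF KO and DKO it was 0.96 (limma adjusted p = 0.113), and there it passed without WT library 1 (adjusted p = 0.0379) and by the authors' q-value (0.0171).

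Cdkn2d encodes p19, another INK4 inhibitor, and was the most abundant inhibitor RNA in every library. The table places its row at chr9:123836860-123839607, between Xcr1 and Ccr3, whereas RefSeq places Cdkn2d between Kri1 and Ap1m2 on the same chromosome, so its identity rests on the symbol alone. This row had 33.1, 37.2 and 39.2 FPKM in CTCF KO, 36.02, 38.9 and 36.5 FPKM in DKO and 41.4, 40.6 and 37.0 FPKM in WT. The 3 groups overlapped. Its log2 fold change was -0.12 (SE 0.08, limma adjusted p = 0.430) in CTCF KO against WT, -0.09 (adjusted p = 0.401) in DKO against WT and -0.03 (adjusted p = 0.827) in CTCF KO against DKO.

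Cdkn2a, which encodes p16 and, from another reading frame, Arf, was listed at 0 in all 3 CTCF KO libraries, all 3 DKO libraries and WT libraries 2 and 3, and at 0.157 FPKM in WT library 1. The other 2 members of both inhibitor families, Cdkn1c and Cdkn2b, were in the table but not tested; Cdkn1c was highest in DKO, at 0.298 to 0.464 FPKM, against 0 to 0.199 in WT. Summed over the 5 inhibitors, the level was 50.4 ± 2.38 FPKM in CTCF KO libraries, 52.0 ± 0.112 in DKO and 58.1 ± 6.08 in WT, and without the Cdkn2d row 13.9 ± 0.995, 14.9 ± 1.56 and 18.4 ± 8.15 in the same groups (SD, n = 3 each). Shares of single inhibitors in the sum were not tested. Cdkn1b was 9.72% of it in CTCF KO libraries, 19.0% in DKO libraries and 11.2% in WT libraries, while Cdkn2c was 11.8% in CTCF KO libraries, 5.003% in DKO libraries and 18.3% in WT libraries, with overlap between CTCF KO and WT.

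The order of the levels also differed between groups. Ccnd3 and Cdk4 were the 2 highest members in every group, and their libraries overlapped in WT, with 381 to 420.3 and 355 to 407 FPKM, but not in CTCF KO or DKO. Ccnd2 and Cdkn2d followed in every group without overlap. Cdk6, Cdkn1b and Cdkn2c came next; their WT libraries overlapped one another, while in DKO Cdkn2c lay below both others. Cdkn1a stood below these 3 genes in WT and overlapped Cdkn2c in both knockouts. In WT its libraries, at 0.638 to 1.09 FPKM, began just above those of Ccnd1, at 0.546 to 0.619 FPKM, and Cdkn2a was lowest throughout.

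Levels of genes with GC-rich transcripts, set against those of other genes, varied between libraries and were highest in those labelled DKO. A GC index was taken for each library as the mean log2 deviation of the 961 tested genes whose transcript has a 100-base window above 83% GC, minus that of the other genes. It was -0.028, -0.40 and -0.44 in CTCF KO libraries, 0.47, 0.72 and 0.42 in DKO libraries and -0.54, -0.32 and 0.11 in WT libraries. All DKO libraries lay above all others, so this index and the DKO genotype cannot be told apart. CTCF KO library 1 and WT library 3 stood apart from their groups.

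Cdkn2c has a window of 86% GC, higher than or equal to that of 96.4% of tested genes. Within CTCF KO and within WT its level was highest in the library with the highest index. The DKO libraries, with the highest indices of all, had 1.45 to 4.24 FPKM. With the index as a covariate the DKO difference from WT was -2.97 (limma adjusted p = 0.0129) and remained called. Cdkn1b, whose window of 74% GC is near the middle of tested genes, stood in the order of the index in WT (4.71, 6.50 and 8.53 FPKM). It did not in CTCF KO, where library 1, highest in index, had the lowest level (4.71, against 5.25 and 4.73 FPKM). Nor did it in DKO, where library 2, highest in index, had 9.44 FPKM, against 11.9 in library 1. The covariate ended the call of Cdkn1b between CTCF KO and DKO, as given above. Cdk4 was lower in DKO by 0.44 and stayed called under this covariate (adjusted p = 0.00951). Without CTCF KO library 1 and WT library 3 together, an alternative chosen after seeing the data, 2 members were called higher in CTCF KO against WT, where 337 of the 10172 genes were. In DKO against WT 4 members were then called higher and 2 lower, where 2018 and 2297 genes were.

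**Figure D4:**
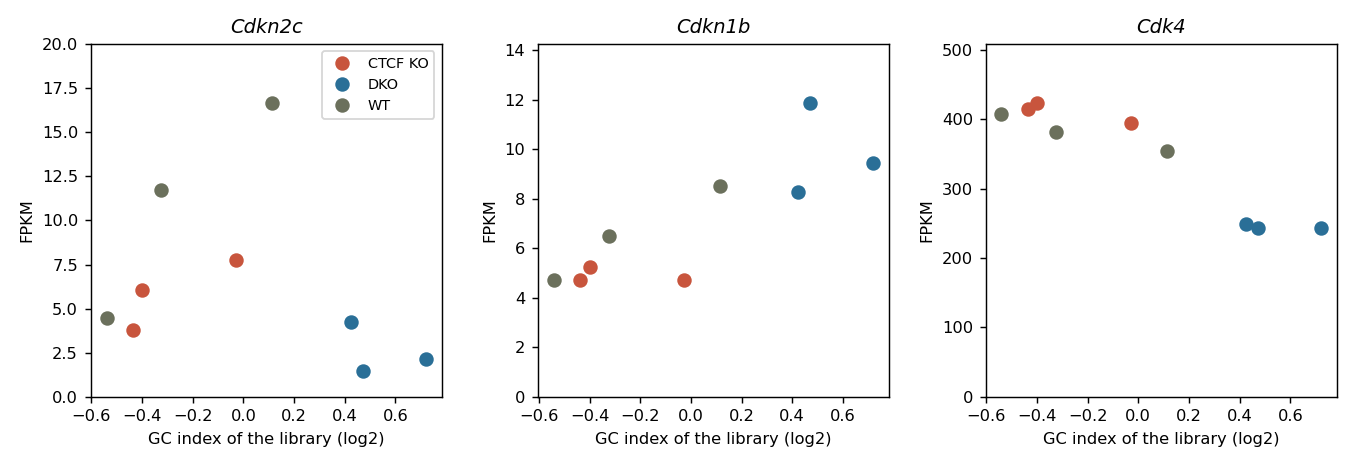
FPKM of Cdkn2c, Cdkn1b and Cdk4 (vertical axes from 0) against the GC index of each library (horizontal axis, log2), with 1 point per library coloured by group. The 3 DKO libraries lie at indices of 0.42 to 0.72, right of all others; Cdkn2c is low there, and Cdkn1b is at 8.27 to 11.9 FPKM.

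Downstream of the cyclin D kinases, markers of S phase and division fell in DKO, and most of them fell in CTCF KO as well. All 18 proliferation markers fell in DKO against WT, with a median log2 fold change of -3.08, and 12 of 18 fell in CTCF KO, with a median of -0.88. For this list and those below, the shares of all tested genes were 18.5% higher and 21.9% lower in DKO against WT. In CTCF KO against WT they were 5.78% higher and 6.37% lower. Rrm2, a subunit of the enzyme that makes deoxynucleotides, had 124 ± 4.79 FPKM in CTCF KO libraries, 22.4 ± 0.892 in DKO and 302 ± 17.7 in WT (SD, n = 3 each). Birc5, which encodes the mitotic protein survivin, had 93.6 ± 5.12, 15.1 ± 2.26 and 246 ± 1.10 FPKM in the same order. Both fell in both knockouts against WT (limma adjusted p from 2.1e-09 to 3.7e-05). Other members of this list were lower in CTCF KO too, such as Ccnb2 (log2 fold change -1.56), Ccnb1 (-1.71) and Aurkb (-1.24), and all 18 were higher in CTCF KO than in DKO. The 6 markers not called in CTCF KO against WT were Tk1 and the replication licensing genes Mcm2, Mcm3, Mcm4, Mcm5 and Mcm7. Mcm2 had 186 ± 14.02 FPKM in CTCF KO libraries, 70.5 ± 0.985 in DKO and 159 ± 9.54 in WT, with a log2 fold change of 0.22 in CTCF KO against WT (limma adjusted p = 0.0758) that was called with the GC covariate (0.21, adjusted p = 0.0441). Ccnd2 and Ccnd3 rose in both comparisons with WT.

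Cyclins E and A, with Cdk2 and its activating phosphatase Cdc25a, act after cyclin D and made a list of 6 genes, of which 5 were tested and Ccna1 was listed at 0. Against WT, 0 were higher and 2 lower in CTCF KO, and 0 were higher at an unadjusted p under 0.05 or by the authors' q-values. DKO had 0 higher and 3 lower, and 0 were higher by those other rules. With the GC covariate 5 were lower in DKO, Ccne1 (-3.40) and Cdc25a (-1.78) among them. Neither of these was called without it. Ccne1 had 14.7 to 15.5 FPKM in DKO, within the 9.66 to 61.2 of WT. Cdc25a had 5.66 to 7.78 FPKM in DKO, overlapping the 6.85 to 14.5 of WT. Their covariate values rest on an index that cannot be told apart from the DKO genotype. Ccna2, the cyclin of S phase and G2, had 32.9, 27.5 and 23.6 FPKM in CTCF KO, 6.19, 4.85 and 5.20 FPKM in DKO and 62.5, 93.6 and 83.1 FPKM in WT. The 3 groups did not overlap, and Ccna2 fell in both knockouts (log2 fold change -1.47 in CTCF KO, limma adjusted p = 0.000618, and -3.64 in DKO, limma adjusted p = 3.4e-07). Cdk2, the kinase of cyclins E and A, fell by 0.33 in CTCF KO and by 0.74 in DKO on the log2 scale (limma adjusted p = 0.0390 and 0.000167). Ccne2, a cyclin E, fell in DKO (log2 fold change -2.73, limma adjusted p = 2.6e-05), and in CTCF KO its log2 fold change of -0.65 was not called (limma adjusted p = 0.124).

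The kinase that activates CDKs consists of Cdk7, cyclin H (Ccnh) and Mnat1. Of the 3, 2 fell in DKO against WT: Ccnh had 28.4, 28.2 and 25.9 FPKM in DKO, against 55.9, 56.7 and 48.6 FPKM in WT (log2 fold change -0.94, limma adjusted p = 8.7e-05), and Mnat1 fell by 0.65 (limma adjusted p = 0.00415). With the GC covariate Mnat1 was no longer called (adjusted p = 0.303). Cdk7 had 15.5, 16.6 and 14.7 FPKM in CTCF KO, 15.4, 15.1 and 15.1 FPKM in DKO and 17.2, 14.9 and 14.001 FPKM in WT, with no call. For CTCF KO against WT limma called 0 of the 3 in either direction, as did the authors' q-values, with 1 lower at an unadjusted p under 0.05.

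Rb and its relatives are targets of the cyclin D kinases. They were listed together with E2F factors and their partners, and all 13 listed were tested. Against WT, 1 rose and 1 fell in CTCF KO. Rbl2, which encodes p130, the Rb relative of resting cells, had 66.1, 58.1 and 60.5 FPKM in CTCF KO, against 46.8, 48.7 and 45.7 FPKM in WT, and rose (log2 fold change 0.38, limma adjusted p = 0.00701). E2f8, a repressor of the E2F family that peaks in S phase, fell by 1.11 (limma adjusted p = 0.00158). Of the 13, 1 rose in DKO (E2f5) and 6 fell (E2f2, E2f3, E2f7, E2f8, Rbl1 and Tfdp1), where 18.5% and 21.9% of all tested genes did. Tfdp1, a partner of many E2F factors in binding DNA, had 21.6, 25.2 and 20.4 FPKM in DKO, against 48.5, 51.0 and 67.7 FPKM in WT (log2 fold change -1.27, limma adjusted p = 0.000178). E2f8 fell by 2.42 in DKO (limma adjusted p = 2.3e-06), E2f7, its close relative, by 1.61 (limma adjusted p = 0.000233) and Rbl1, which encodes p107, by 0.82 (limma adjusted p = 0.00112). With the GC covariate the DKO counts became 0 higher and 4 lower, and Rbl1 was not called (-0.49, limma adjusted p = 0.165). Between the knockouts, 7 of the 13 were higher and 2 lower in CTCF KO, where 21.8% and 16.2% of all tested genes were. Rbl2 was higher by 0.36 (limma adjusted p = 0.00319). There the GC covariate left 2 higher and 0 lower, and Rbl2 was not called (0.38, limma adjusted p = 0.136).

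Of 14 genes for the turnover and assembly of the members' proteins, 0 rose and 2 fell in CTCF KO against WT, with 1 higher at an unadjusted p under 0.05 and 0 by the authors' q-values. Cks1b, which helps the SCF-Skp2 ligase to mark p27 for destruction, had 113, 140.2 and 103 FPKM in CTCF KO, 32.2, 37.0 and 38.5 FPKM in DKO and 268, 239 and 242 FPKM in WT. The groups did not overlap, with a log2 fold change of -1.08 in CTCF KO (limma adjusted p = 0.000443) and -2.76 in DKO (limma adjusted p = 1.8e-07). Cks2, its paralog, fell in both as well. The DKO comparison had 1 rise and 6 falls, where 18.5% of all tested genes rose and 21.9% fell. Dtl, the substrate receptor through which p21 is degraded in S phase, had 3.36, 1.75 and 3.14 FPKM in DKO, against 27.4, 27.1 and 25.2 FPKM in WT (log2 fold change -2.90, limma adjusted p = 1.3e-06). In CTCF KO Dtl had 24.2, 21.3 and 21.9 FPKM (log2 fold change -0.23 against WT, limma adjusted p = 0.443). Cdc37, the chaperone that loads Cdk4 onto Hsp90, fell by 0.22 in DKO (limma adjusted p = 0.0177), but with the GC covariate it was -0.048 (adjusted p = 0.798) and the authors' q-value was 0.181. Fbxo31, an F-box protein known to act on cyclin D1, rose by 1.84 in DKO (limma adjusted p = 0.0129), and with the GC covariate it was -0.31 (adjusted p = 0.537). Under that covariate 0 rose and 3 fell.

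Transcription factors known to act on the members were listed as 15 genes, of which 10 were tested. Against WT, 0 rose and 2 fell in CTCF KO, with 1 higher at an unadjusted p under 0.05 and 0 by the authors' q-values. Myc, which activates Ccnd2 and Cdk4 and represses Cdkn1a in many cell types, had 89.8, 99.5 and 93.6 FPKM in CTCF KO, 117, 111 and 106 FPKM in DKO and 113, 107 and 122 FPKM in WT. The CTCF KO libraries lay below all others, and Myc fell by 0.27 in CTCF KO (limma adjusted p = 0.0365), while DKO differed from WT by -0.03 (limma adjusted p = 0.789). Ezh2, the Polycomb enzyme that silences Cdkn2a, fell by 0.72 in CTCF KO and by 1.71 in DKO (limma adjusted p = 0.00721 and 1.0e-05).

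Of these 10, 5 rose and 1 fell in DKO against WT, where 18.5% and 21.9% of all tested genes did. Klf2, a factor of quiescent T cells that raises Cdkn1a, had 295, 382 and 211 FPKM in DKO, against 13.6, 17.9 and 36.9 FPKM in WT, and rose by 3.72 (limma adjusted p = 2.7e-05). In CTCF KO Klf2 had 19.2, 15.3 and 13.96 FPKM, all within the range of WT. Cbx7, a Polycomb protein that represses Cdkn2a, rose by 2.39 in DKO (limma adjusted p = 9.3e-05), and Gfi1, a repressor of Cdkn1a, by 1.62 (limma adjusted p = 0.00737). Gfi1 had 1.89, 8.18 and 2.42 FPKM in DKO, against 0.725, 0.331 and 0.366 FPKM in WT, with 1 DKO library far above the others. Only the DKO libraries reached 1 FPKM, so Gfi1 passed the expression filter through them alone. Foxo1, which activates Cdkn1b, had 12.3, 39.6 and 12.5 FPKM in DKO, against 6.07, 6.58 and 8.12 FPKM in WT (log2 fold change 1.30, limma adjusted p = 0.0204), and 1 DKO library lay far above the others. With the GC covariate Klf2 (2.26) and Cbx7 (1.24) stayed called higher. Gfi1 (1.25, adjusted p = 0.262), Foxo1 (0.43, adjusted p = 0.681) and Bmi1 (-0.093, adjusted p = 0.845) were then not called.

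p53 targets were examined as the setting of Cdkn1a. Of 20 listed besides Cdkn1a, 17 were tested; in CTCF KO against WT 3 rose and 0 fell, with 1 lower at an unadjusted p under 0.05 and 0 by the authors' q-values. Phlda3, a p53-induced inhibitor of Akt, had 8.01, 6.23 and 6.53 FPKM in CTCF KO, 4.13, 3.43 and 4.66 FPKM in DKO and 1.32, 1.95 and 1.67 FPKM in WT. Its groups did not overlap, and it rose by 1.58 in CTCF KO and by 0.94 in DKO (limma adjusted p = 0.000253 and 0.00116). Bax, which opens the mitochondrial membrane in apoptosis, rose by 0.44 and 0.27 (limma adjusted p = 0.00286 and 0.0114), and Aen, a nuclease induced by p53, by 0.51 in CTCF KO (limma adjusted p = 0.0109). With the GC covariate all 3 stayed called in CTCF KO. In DKO, Phlda3 (0.80, limma adjusted p = 0.107) and Bax (0.23, limma adjusted p = 0.268) were then not called. Trp53 itself was not called, at 155, 169 and 171 FPKM in CTCF KO, 133, 137 and 154 FPKM in DKO and 160.1, 147 and 135 FPKM in WT.

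Of the 17, 6 rose and 1 fell in DKO against WT, where 18.5% and 21.9% of all tested genes did (40.4% in either direction). Pmaip1, which encodes the cell death protein Noxa, had 43.4, 33.6 and 46.5 FPKM in DKO, against 5.32, 5.11 and 7.42 FPKM in WT, and rose by 2.60 (limma adjusted p = 4.3e-06). Btg2, an antiproliferative gene, had 156, 148 and 164 FPKM in DKO, against 70.7, 66.3 and 64.5 FPKM in WT, and rose by 1.20 (limma adjusted p = 8.7e-07). Neither was called in CTCF KO against WT, where Pmaip1 differed by -0.11 (limma adjusted p = 0.766) and Btg2 by 0.029 (limma adjusted p = 0.846), and both were lower in CTCF KO than in DKO, with log2 differences of -2.72 and -1.17 (limma adjusted p = 4.3e-06 and 1.4e-06). With the GC covariate 3 rose and 0 fell in DKO. The list's median log2 fold change was 0.09 in CTCF KO against WT and 0.17 in DKO against WT.

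**Figure D5:**
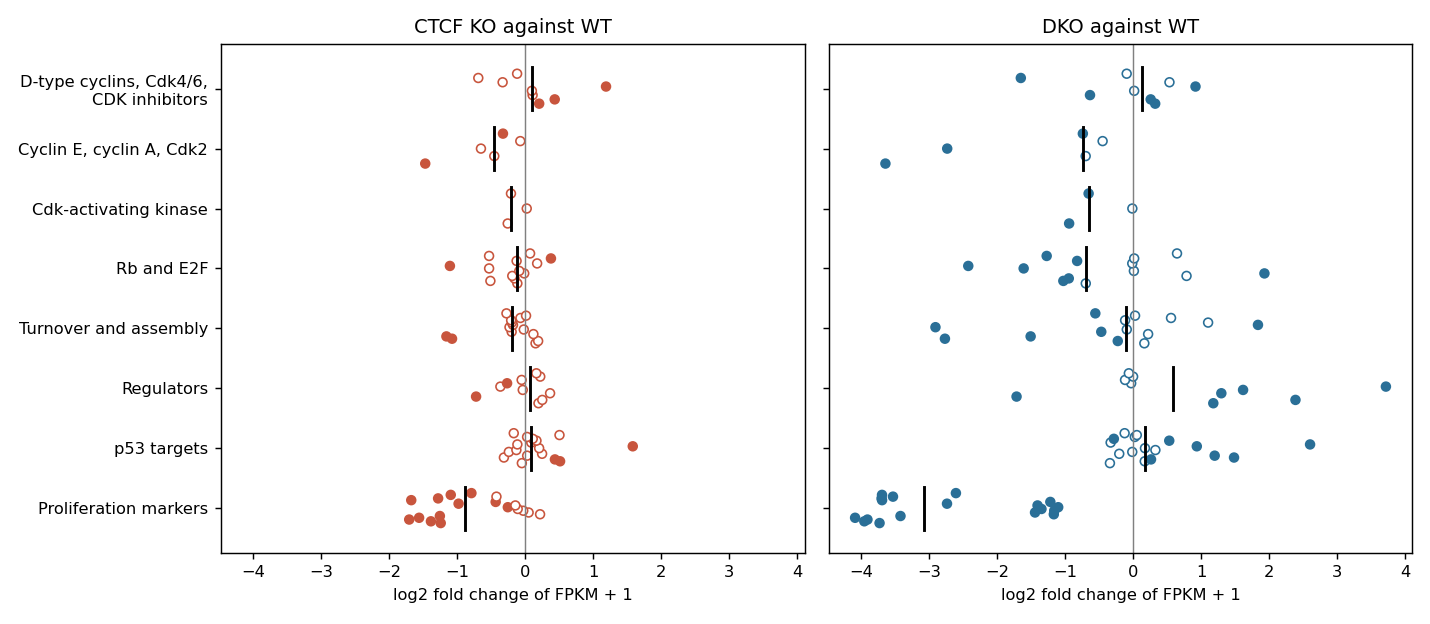
Log2 fold change of FPKM + 1 (horizontal axis) of every tested gene of the members and of the 7 pathway lists, in CTCF KO against WT (left) and DKO against WT (right); filled points have a limma adjusted p under 0.05 and black bars are list medians. The proliferation markers lie left of the other lists, with medians of -0.88 and -3.08, while the members lie on both sides of 0.

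Neighbouring genes were compared with the members because FPKM of overlapping genes cannot be told apart where counting ignored strand, which is not stated. Bysl has the same deposited interval as Ccnd3 and had 48.9 ± 3.95 FPKM in CTCF KO libraries, 45.6 ± 1.73 in DKO and 42.1 ± 1.498 in WT, with no call. Tspan31 starts 7 bases beyond Cdk4 and overlaps it in RefSeq; it rose in CTCF KO against WT by 0.57 (limma adjusted p = 0.00433), and in DKO against WT its log2 fold change was -0.18 (limma adjusted p = 0.158). Between the knockouts Tspan31 was higher in CTCF KO by 0.75 (limma adjusted p = 0.000312), close in size to the Cdk4 difference of 0.74; with the GC covariate it was 0.62 and not called (adjusted p = 0.0633). The deposited interval of Ccnd2 is also that of 9330179D12Rik, at 0.840 ± 0.254 FPKM in CTCF KO libraries, 1.35 ± 0.102 in DKO and 1.07 ± 0.775 in WT.

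The nearest tested gene above Cdkn1b fell in both knockouts, while Gpr19, the nearest below, was not called in any comparison. 1190002F15Rik, named Lockd in RefSeq and transcribed 3566 bases beyond Cdkn1b, had 24.2, 23.5 and 24.9 FPKM in CTCF KO, 9.59, 9.38 and 12.4 FPKM in DKO and 66.9, 65.0 and 70.8 FPKM in WT. The groups did not overlap. It fell by 1.44 in CTCF KO and by 2.59 in DKO against WT (limma adjusted p = 4.4e-05 and 1.4e-07) and was higher by 1.15 in CTCF KO than in DKO (limma adjusted p = 3.7e-05), where Cdkn1b was lower. Its window of 63% GC is low, and with the GC covariate all 3 calls remained. Mtap, the nearest tested gene below Cdkn2a, also fell, by 0.32 in CTCF KO and by 1.04 in DKO (limma adjusted p = 0.0295 and 9.6e-06). On either side of Cdkn1a, which rose, Srsf3 and Ppil1 were lower in both knockouts. Srsf3 fell by 0.25 in CTCF KO and 0.39 in DKO (limma adjusted p = 0.0272 and 0.000861). Ppil1 fell by 0.30 and 0.50 (limma adjusted p = 0.0132 and 0.000240). With the GC covariate both stayed called in CTCF KO and not in DKO. Further tested neighbours, some of them called, are not listed here. Faf1, 11254 bases above Cdkn2c, rose by 2.44 in DKO (limma adjusted p = 0.00241), but its window has 87% GC and the call was lost with the GC covariate (adjusted p = 0.314).

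Across all tested genes, the profiles most like those of the called members over the 9 libraries were found by the root mean square difference of log2(FPKM + 1), each profile centred on its mean. For Cdk4, whose own profile varied by 0.33, these were Cd8a, a chain of the CD8 coreceptor, at 0.04 and Rfc2, a subunit of the clamp loader of DNA replication, at 0.04. For Ccnd3, which varied by 0.19, they were Fam189b at 0.02 and Limk2 at 0.05, and for Ccnd2, which varied by 0.14, Mettl17 at 0.03 and Bin1 at 0.05. For Cdkn1b (0.42) they were Zfp36l1 at 0.12 and Dyrk2 at 0.13, and for Cdkn1a (0.57) Tle2 at 0.18 and Ap3m2 at 0.23. Cdkn2c (0.86) had no close match: Akr1e1 stood at 0.41 and Ezh2 at 0.42. These are likenesses among 9 libraries in 3 groups and share the group differences.

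In the table, Ccnd1 lies at chr7:152115836-152125830, Ccnd2 at chr6:127075727-127162437, Ccnd3 at chr17:47642000-47748441, Cdk4 at chr10:126500659-126504338 and Cdk6 at chr5:3344312-3522225. Cdkn1a lies at chr17:29227931-29237667, Cdkn1b at chr6:134870419-134875543, Cdkn2a at chr4:88920377-88940523 and Cdkn2c at chr4:109333481-109337977. The intervals of Ccnd2 and Ccnd3 are each shared with another gene, as given above, so they need not be the extents of these genes alone. All these positions are as deposited and are not on GRCm38: 962 of the 22463 symbols shared with RefSeq began within 1000 bases of the same place on that build. mm9 is the other build that the submitters' processing notes name, so the promoter positions above, on GRCm38.p6, cannot be set beside them.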

How the data were processed

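RNA-seq of 9 mouse CD8 T cell libraries (3 each of CTCF KO, DKO and WT) was analysed. The authors deposited 1 table of FPKM per gene and library with p-values and q-values of their pairwise comparisons; the submitters' processing notes name FastQC, TopHat2 2.1.0, Cuffdiff 2.2.1 and the builds mm9 and mm10. Their annotation, library scaling and strand setting are not given in the sources used here. The deposited p-values and q-values were used only as an alternative, with the direction taken from the fold changes computed here.

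FPKM was taken as log2(FPKM + 1), a gene was kept if 3 or more of the 9 libraries reached 1 FPKM (10172 genes), and limma 3.58.1 in R 4.3.3 was fitted to all 9 libraries with 1 mean per group, an intensity trend and two-sided tests. Benjamini-Hochberg adjustment ran across every gene kept, with calls made under 0.05. The fit was checked on simulated data. Numbers in the DKO column names could not be tied to single samples, so these columns stand for the group only, and DKO library numbers are those of the columns. Tables were handled in Python 3.11.15 with pandas 2.3.3.

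All members are named with their values. Of each pathway list, up to 4 called genes with the smallest adjusted p in a comparison were eligible, or, in a list with no call, up to 2 of the highest mean level. Other names were chosen after their values were seen: Ccna1, Ccne1, Cdc25a, Cdkn1c, the Mcm genes, Tk1, E2f2, E2f3, E2f5, Foxo1, Bmi1 and Trp53. The members and lists were chosen with earlier results of these data known. Alternatives were other pseudocounts, scalings, filters, fits, the deposited q-values, a GC covariate (10119 genes, 99.5% of those tested, had a transcript) and each library left out.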

Additional observations from a re-analysis of the deposited data

How the results depend on the processing

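Ranges over the 9 fits that leave out 1 library each are given in brackets. In CTCF KO against WT, 588 genes were higher (343 to 549, with 346, 343, 352 and 381 without CTCF KO library 2, CTCF KO library 3, WT library 2 and WT library 3) and 648 lower (411 to 634, with 411 without WT library 2). Array weights gave 1147 and 1132, and dropping CTCF KO library 1 and WT library 3 together, chosen after seeing the data, gave 337 higher. Members called higher were 3 (2 to 3, with 2 in 8 of the 9 fits), and members called lower were 0 by limma and 1 by the authors' q-values. With the replicate block, 95 genes were higher, 202 lower, and 1 member higher (Cdkn1a). Same-numbered CTCF KO and WT libraries had deviations that correlated at -0.62, 0.16 and -0.45. Not every library correlated best with its own number. The highest correlation, 0.62, joined CTCF KO library 1 and WT library 3, which stand apart from their groups in GC index. This check therefore cannot decide whether the numbers pair these samples. DKO columns carry no usable number, and the main fit uses no pairing. In DKO against WT, the GC covariate gave 621 higher and 816 lower genes, against 1886 (1408 to 1928) and 2227 (1818 to 2248), and the authors' q-values gave 1379 lower; 3 members were higher (3 to 4) and 2 lower (1 to 2). In CTCF KO against DKO, the GC covariate gave 581 higher and 427 lower, against 2218 (1698 to 2258) and 1649 (1235 to 1878), and the authors' q-values gave 1336 higher. There 1 member was higher (1 to 2), and 2 were under median scaling, the fit of only 6 libraries, array weights, the authors' q-values and the dropping of both libraries; 1 was lower, with 2 under quantile normalization and 0 under the GC covariate.

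Among the members, 17 signs turned, none of a called difference. Cdk6 in CTCF KO against WT was -0.16 under array weights (-0.026 to 0.26). Cdk6 in DKO against WT was -0.078 under quantile normalization, -0.042 under median scaling, -0.22 under array weights and -0.021 without both libraries (-0.11 to 0.18). Cdkn2d in DKO against WT was 0.10 and Cdkn1a in CTCF KO against DKO was -0.045 under the GC covariate. Cdkn2d in CTCF KO against DKO was 0.045 under median scaling, 0.0042 under array weights and 0.040 without both libraries (-0.079 to 0.040). The cause was not tested in any of these. The median of all tested genes moved by less than 0.1 (log2) under every alternative. Over members, gene counts and alternatives together, 725 values kept direction and side of the threshold, 23 lost and 17 gained a call, 17 changed sign and 31 counts moved by over 1.5 times. Depth is unknown, so the precision of the lowest members (Ccnd1, Cdkn1a, Cdkn2a) cannot be given.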
